A study of Rattus norvegicus with 9 samples.

Results

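The drug metabolising cytochrome P450 genes of families 1 to 4 were followed in the livers of normal, CCl4-treated and tormentic acid (TA)-treated rats. They were chosen by name alone, as the genes whose symbol is Cyp, a family number from 1 to 4, a subfamily letter and a gene number, without Cyp2e1 and Cyp1a2. The rule found 43 of the 17156 genes in the deposited tables. Of these, 40 were listed for every group. Cyp2b12 was listed for the normal and model groups alone, and Cyp2b21 and Cyp2j16 for the model and TA groups alone. A further 21 P450 symbols, most of them of other families such as the bile acid and sterol enzymes Cyp7a1 and Cyp51, were outside the rule. They also hold Cyp2ab1, Cyp2ac1, Cyp2c6v1 and Cyp3a23/3a1, whose names do not have the form above, so that the Cyp2c and Cyp3a genes described here are not all of their subfamilies.

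P450 enzymes are haem proteins of the endoplasmic reticulum that take electrons from the reductase Por and oxidise drugs, steroids and fatty acids. In the liver they are made mainly by hepatocytes, where each subfamily answers to its own receptor, such as the aryl hydrocarbon receptor Ahr for the Cyp1 genes, the constitutive androstane receptor Nr1i3 for Cyp2b, the pregnane X receptor Nr1i2 for Cyp3a and Ppara for Cyp4a. In the rat several of them also differ between the sexes under the control of growth hormone, with Cyp2c11 the typical male form and Cyp2c12 the typical female form.

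The 9 male Sprague-Dawley rats formed a normal control, a model and a TA group of 3 livers each, whose RNA was sequenced. The normal rats received saline. The model and TA rats received 2 ml/kg of a 50% oil solution of CCl4 into the stomach for 9 weeks, and CCl4 is itself activated by a P450, Cyp2e1. The TA rats then received TA, a plant triterpenoid, for 6 weeks at 3 mg/kg. The labels do not name that dose, which is in the methods. Every rat was fasted for 12 h before the liver was taken. The libraries are numbered as replicates of their group and were taken as different animals.

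The libraries held 13156735 to 18090405 counted reads. The 50 genes with the most reads took 27.9% of the reads in model rat 1 and 40.4% to 45.7% in the other 8 livers, and that library also had the largest normalization factor, 1.72 against 0.819 to 1.17. The labelled tissue was checked by 8 hepatocyte genes, Alb among them, whose summed level was 140521 to 181752 CPM in the normal livers, 40779 to 125155 CPM in the model livers and 123067 to 199776 CPM in the TA livers. CPM here are counts scaled to library size, with TMM factors over all 9 libraries. The 7 stellate cell and myofibroblast genes listed in both tables summed to 183 to 269.8 CPM in normal, 1140 to 12246 CPM in model and 644 to 1139 CPM in TA livers, and the 6 cholangiocyte genes to 17.8 to 30.9, 113 to 1973 and 33.9 to 51.9 CPM. Model rat 1 had the highest sum of both lists. In pieces of whole liver, fewer cells of a type and less RNA per cell cannot be told apart.

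Levels per gene length were compared as FPKM in the normal livers. A mean of at least 100 FPKM was reached by 15 members, 9 lay between 10 and 100 FPKM, 5 between 1 and 10 FPKM, 12 were under 1 FPKM and 2 had no value there. The fatty acid omega hydroxylase Cyp4a2 was the highest at 1348 ± 444 FPKM (SD, n = 3), followed by Cyp2d2, a member of the family that oxidises debrisoquine-type drugs, at 1100 ± 117 FPKM. The epoxygenase Cyp2c23 followed at 613 ± 213 FPKM, then the male-type enzymes Cyp2c13 at 573 ± 117 and Cyp2c11 at 478 ± 64.3 FPKM. Cyp3a2, the male-type steroid 6-beta-hydroxylase, had a mean of 421 ± 350 FPKM. Of the neighbours in this order, Cyp2d2 stood above Cyp2c23 by more than their SDs, and the other pairs lay within their spread. Some levels rest on short gene models. The length behind the FPKM values was 799 bases for Cyp3a2 and 783 bases for Cyp2c7, and Cyp2c7 was given at most 3 reads in any liver. The counting could also not be followed between near-identical copies such as the Cyp2d and Cyp4a genes, and Cyp2b1, Cyp2a2 and Cyp4a3 were not analysed here, so that levels of single paralogs are uncertain.

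The members took 1.28%, 1.56% and 1.29% of the counted reads in the 3 normal livers. The model livers stood at 0.351%, 0.632% and 1.41%. The TA livers stood at 1.56%, 1.74% and 1.43%. Thus model rats 1 and 2 were below every other liver, while model rat 3 lay inside the normal range. The means were 1.38% ± 0.155 in normal, 0.798% ± 0.549 in model and 1.58% ± 0.155 in TA livers (SD, n = 3 each).

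**Figure D1:**
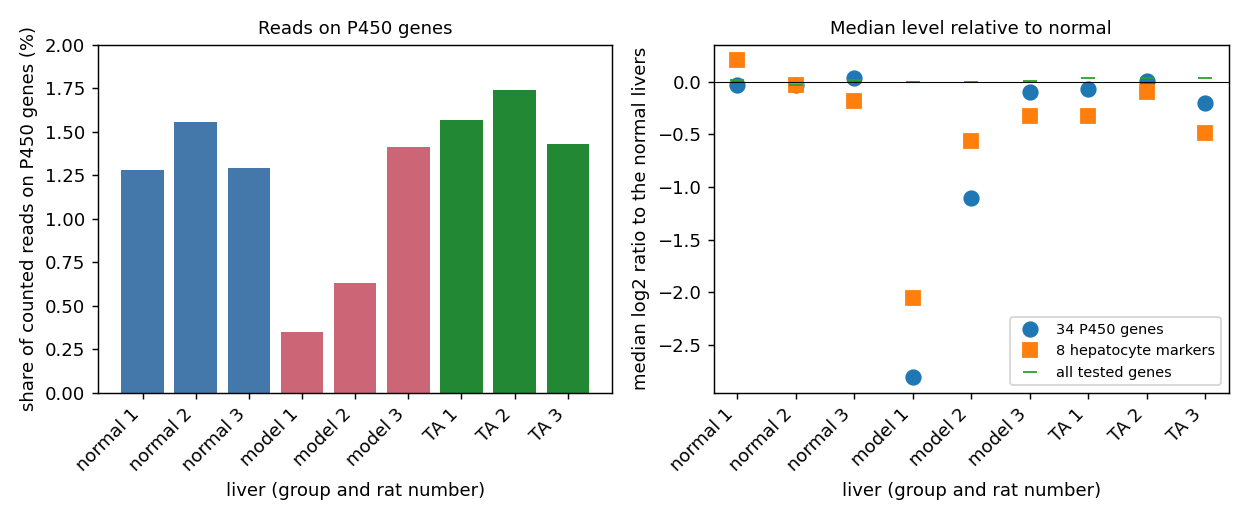
Left, share of counted reads on the P450 genes in percent, 1 bar per liver. Right, median log2 ratio of CPM to the mean of the normal livers for 34 P450 genes (circles), 8 hepatocyte markers (squares) and all tested genes (dashes). Model rat 1, at 0.351%, and model rat 2, at 0.632%, have the shortest bars, and their P450 medians of -2.80 and -1.10 lie below their hepatocyte marker medians of -2.06 and -0.57. The P450 median is the higher one in model rat 3, at -0.10 against -0.33, and in each TA rat.

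The first comparison asked how the livers of the model group differed from normal. Most abundant P450 genes were lower in the model group, and the change was uneven between its rats. Counts were compared by edgeR's quasi-likelihood test over 12730 genes, of which 34 were members. Of the other 9 members, Cyp2b21 and Cyp2j16 were not listed for these groups, and the rest had too few reads to be tested. At an adjusted p under 0.05, 3 of the 34 members were called, which is 8.82% of them, and 7.87% of all tested genes were called. The 3 were Cyp2f4 and Cyp2d4, which fell, as 1.01% of all genes did, and Cyp1b1, which rose, as 6.86% of all genes did. An unadjusted p under 0.05 was reached by 13 members (38.2%) and by 28.9% of all genes. By the thresholds of the study, a log2 fold change beyond 1 in size at an unadjusted p under 0.05, 9 members were lower, against 5.55% of all genes (26.5% of the members), and 2 were higher, against 16.6% of all genes (5.88% of the members). The groups did not overlap for 14 members that were lower, where the share over all genes was 17.3%, and for 3 that were higher, where it was 20.9%. The median log2 fold change was -0.87 over the 34 members and 0.02 over all tested genes, and 25 members (73.5%) had a negative value, as 49% of all genes had.

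The level in normal liver separated the members. Of the 24 with at least 10 FPKM in normal liver, 22 had a negative log2 fold change, with a median of -1.44, and of the 10 tested members below that level 3 had, with a median of 0.63. The normal livers enter both the classes and this comparison, so the split is a description. The median of the members was negative under each of the 5 scalings, while the split of the calls depended on the scaling. Scaled to the library totals, the median of all genes moved to 0.65 and that of the members to -0.39, so that the thresholds of the study found 5 of 10 members lower. Scaled to the hepatocyte markers, these medians were 1.21 and -0.17, and 3 of 10 members were lower. Relative to the median of all genes, the members lay at -0.89, -1.04 and -1.38 on the log2 scale under the 3 scalings. The hepatocyte markers moved with the members. All 8 had a negative log2 fold change, from -1.76 to -0.14, with a median of -0.78 and none called by either rule, and 5 of the 8 did not overlap between the groups. Their part in the P450 result was not tested.

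**Figure D2:**
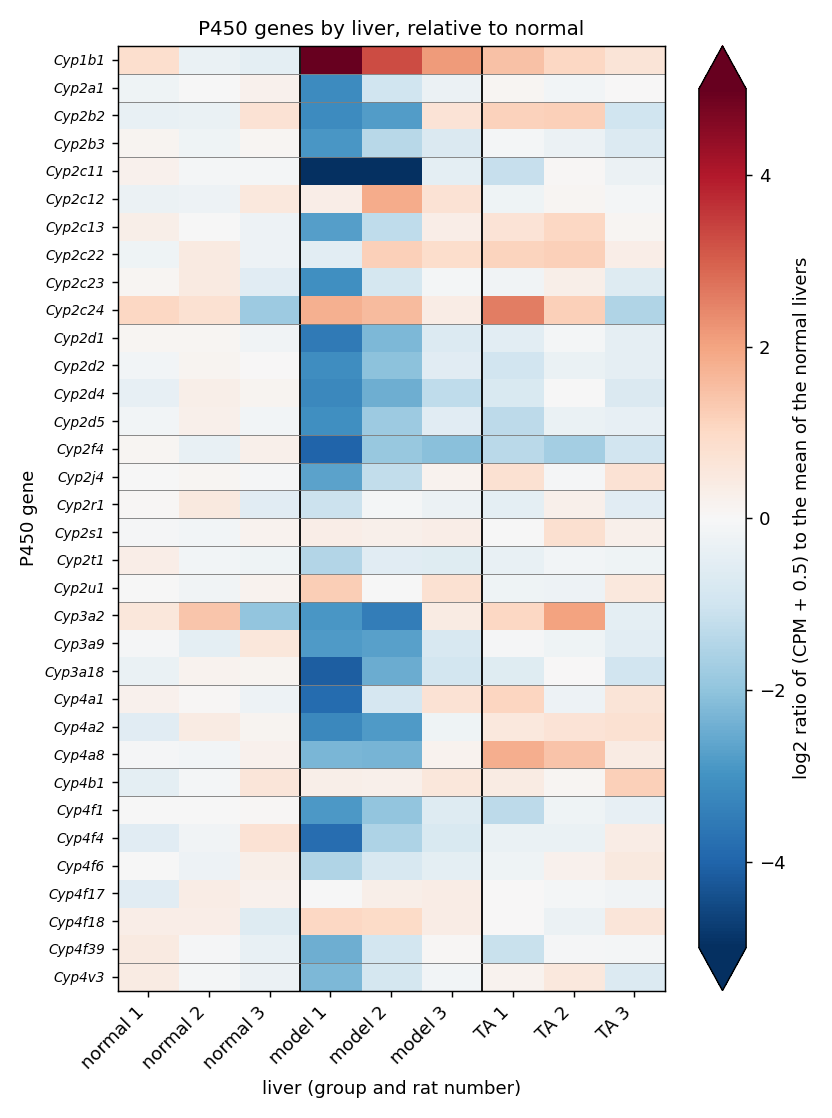
Log2 ratio of the level (CPM + 0.5) of each of the 34 P450 genes tested in Model VS Normal to its mean in the normal livers, with 1 column per liver, rows grouped by subfamily and colours ending at 5. Model rats 1 and 2 are blue for most genes, whereas model rat 3 and the TA rats are mostly pale. Cyp1b1 is red in each model rat.

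The model livers differed widely from each other for these genes, and the hepatocyte markers did so too. The median log2 ratio of the highest to the lowest of the 3 livers was 2.35 over the 34 members, 1.63 over the 8 hepatocyte markers and 0.75 over all tested genes. In the normal group it was 0.67, 0.46 and 0.59, and in the TA group 0.84, 0.51 and 0.64. Model rat 1 was the lowest of the 3 for 25 members, and model rat 3 the highest for 24. Against the range of the normal livers, 26, 24 and 14 of the 34 members were below it in model rats 1, 2 and 3, where 39.2%, 32.0% and 28.0% of all genes were. Without model rat 3, 16 members passed an adjusted p under 0.05 and 25 the thresholds of the study, of 36 tested, and the median was -1.69. The same fit called 19.3% and 29.8% of all genes by these rules, so that calls rose over all genes as well. Without model rat 1, whose stromal genes were the highest, these numbers were 2, 12 and -0.49, with 888 and 2061 of 12884 genes called. Without model rat 2 or any 1 normal rat, no member passed an adjusted p under 0.05 by edgeR's test, at 5 or 6 members past the thresholds of the study and 6 or 7 with an unadjusted p under 0.05. The adjusted calls over all genes were 4.54% without model rat 2, and 0.385%, 0% and 0% without normal rats 1, 2 and 3. The thresholds of the study were passed by 21.3%, 20.2%, 17.8% and 18.9% of all genes in these fits.

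The second comparison asked how the livers of the TA group differed from those of the model group. The abundant P450 genes were higher in the TA group, but at 3 rats against 3 the differences did not pass correction. Among 12781 tested genes, 36 of them members and 7 members untested, edgeR's quasi-likelihood test called no gene at an adjusted p under 0.05, so that 0% of all genes and 0 of the 36 members passed, and the smallest adjusted p was 0.23 over all genes and 0.246 over the members. DESeq2 and limma voom each called 3 members on the same counts, where they called 4.23% and 1.32% of all genes, and 7 members (19.4%) had an unadjusted p under 0.05 in edgeR, as 15.6% of all genes had. All 7 also had an absolute log2 fold change over 1. Of these, 5 were higher, where 2.11% of all genes were (13.9% of the members, and 4.17% of all genes by the unadjusted p alone), and 2 were lower, where 10.2% of all genes were (5.56% of the members). The 5 were Cyp4a8, Cyp4a2, Cyp2d4, Cyp3a9 and Cyp4f6, and the 2 were Cyp1b1 and Cyp2c12. The groups did not overlap for 11 members that were higher, where the share over all genes was 10.5%, and for 2 that were lower, where it was 12.6%. The median log2 fold change was 0.98 over the members and 0.00 over all genes, and 30 of 36 members (83.3%) had a positive value and 6 a negative one, against 49.7% and 50.3% of all genes.

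The 24 members with at least 10 FPKM in normal liver, a class in which neither group of this comparison was used, had a positive log2 fold change in 24 cases, with a median of 1.09. With the library totals as the scale, 22 of the 24 were positive, and 21 with the hepatocyte markers. The 12 tested members below that level were split 6 and 6. Under these 2 scalings the median of all genes moved to -0.48 and -1.06 and that of the members to 0.65 and 0.25, and 3 and 4 of the 7 members past the thresholds of the study were lower. Relative to all genes, the members lay at 0.98, 1.13 and 1.31. Leaving out model rat 3 raised the members past the thresholds of the study from 7 to 22, and leaving out TA rat 1 lowered them to 4. Over all genes the share past these thresholds went from 12.3% to 21.2% and to 10.4%. The 8 hepatocyte markers had log2 fold changes from -0.15 to 1.12 with a median of 0.67, and the 6 cholangiocyte and 7 stellate cell markers were lower in all 13 cases, with medians of -2.62 and -2.25. Their part in the P450 result was not tested.

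The third comparison set the TA group against normal, and it shares the normal and the TA rats with the comparisons above. The members went both ways here, from -1.37 to 2.12 on the log2 scale. Of 12179 tested genes 32 were members, and 11 members were untested. The median log2 fold change was -0.10 over the members and -0.01 over all genes, with 15 members positive and 17 negative, against 49% and 51% of all genes. At an adjusted p under 0.05, edgeR's test called 0.263% of all genes (0.23% higher and 0.0328% lower) and 0 of the 32 members. By the same rule DESeq2 called 2.96% of all genes and 2 members. An unadjusted p under 0.05 was reached by 5 members, 3 higher and 2 lower, and by 9.43% of all genes, 5.99% higher and 3.44% lower. The thresholds of the study were passed by 5.25% of all genes and by 3 members, with Cyp1a1 and Cyp4a8 higher, as 4.24% of all genes were, and Cyp2f4 lower, as 1.02% were. The groups did not overlap for 7 members, or 21.9%, and for 15.1% of all genes, with 3 members higher (8.26% of all genes) and 4 lower (6.81%). In this comparison the rats of the same number deviated together, and with the number as a block the calls at an unadjusted p under 0.05 rose from 5 to 14 and Cyp2f4 passed an adjusted p under 0.05. The block also raised the calls at an adjusted p under 0.05 over all genes from 32 to 203. Neither the labels nor the study's methods pair the rats by number, so these calls rest on an assumed pairing. A p that misses the threshold does not show that the groups were alike.

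**Figure D3:**
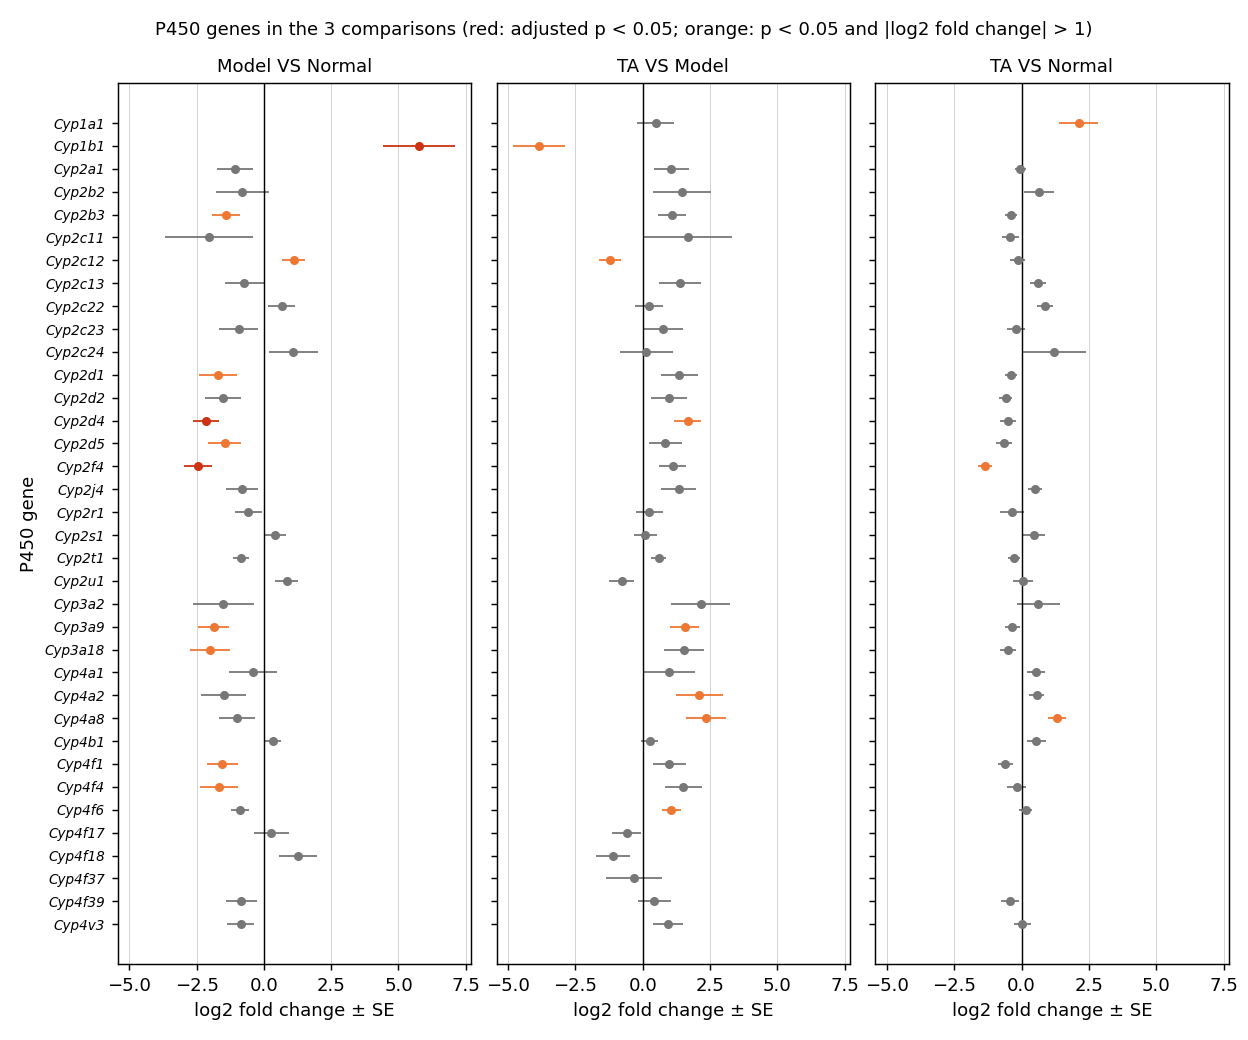
Log2 fold change with its standard error of each tested P450 gene in the 3 comparisons, on 1 scale. Red points have an adjusted p under 0.05, and orange points pass the thresholds of the study. Most points lie left of 0 in Model VS Normal (25 of 34), right of 0 in TA VS Model (30 of 36) and around 0 in TA VS Normal.

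Of the Cyp2d genes, which oxidise basic drugs, 3 of 4 tested were lower in the model group by the thresholds of the study. The numbers were 2 of 3 for Cyp3a and 2 of 6 for Cyp4f, and 5.55% over all genes. All 4 Cyp2d genes had a negative log2 fold change there, between -2.15 and -1.46. Their groups did not overlap, as for 17.3% of all genes in this direction. The 4 values were negative under each of the 5 scalings tried. Cyp2d4, best known from the brain, had 56.9, 93.4 and 82.9 CPM in the normal livers, 7.76, 13.5 and 31.0 CPM in the model livers and 45.2, 76.0 and 46.1 CPM in the TA livers. The model rats were the lowest 3 of the 9, and the normal and TA ranges overlapped. The log2 fold change of Cyp2d4 was -2.15 ± 0.49 (SE) in Model VS Normal, with an adjusted p of 0.0413 by edgeR's quasi-likelihood test. Over all alternatives the adjusted p ran from 0.000544, by DESeq2, to 0.159. In TA VS Model the log2 fold change was 1.67 ± 0.50 with an adjusted p of 0.258 by edgeR's test.

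Cyp2d2, the most abundant of the subfamily, had 1978, 2395 and 2225 CPM in normal, 255, 529 and 1486 CPM in model and 1140, 1732 and 1610 CPM in TA livers. Every model and every TA liver was below every normal liver, and the model and TA ranges overlapped. The log2 fold changes of Cyp2d2 were -1.53 ± 0.68 against normal in the model rats and -0.59 ± 0.23 in the TA rats, with unadjusted p-values of 0.0539 and 0.0349 and adjusted p-values of 0.18 and 0.457 by edgeR's test. Cyp2d1 had a log2 fold change of -1.71 ± 0.70 in Model VS Normal (adjusted p 0.152) and of 1.36 ± 0.70 in TA VS Model (adjusted p 0.372). Cyp2d1 passed the thresholds of the study in Model VS Normal in 2 of 6 fits without 1 library, and lost them without model rat 2 or any 1 normal rat, while its value was -2.76 without model rat 3. In TA VS Normal, all 4 Cyp2d values were negative, from -0.66 to -0.38, also under each other scaling.

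Of the Cyp3a genes, whose products oxidise steroids and a large share of drugs, 3 were tested, and each was negative in Model VS Normal but positive in TA VS Model under all 5 scalings. Cyp3a9, a form that is higher in female rats, had 93.5, 70.4 and 145 CPM in normal, 13.3, 14.6 and 56.2 CPM in model and 95.4, 83.8 and 68.8 CPM in TA livers. The model livers lay below all 6 others, which overlapped. On the log2 scale Cyp3a9 differed by -1.87 ± 0.59 in Model VS Normal and by 1.55 ± 0.55 in TA VS Model, with adjusted p-values of 0.088 and 0.276 by edgeR's test. Cyp3a18 had a log2 fold change of -1.99 ± 0.74 in Model VS Normal, again without overlap, with an adjusted p of 0.124, and of 1.52 ± 0.74 in TA VS Model, with overlap. In Model VS Normal the thresholds of the study were lost by Cyp3a9 without normal rat 3 and by Cyp3a18 without normal rat 2, normal rat 3 or model rat 2, and without model rat 3 the values were -2.87 and -3.10. Cyp3a9 lost them in TA VS Model without model rat 2 or TA rat 1, and was at 2.56 without model rat 3.

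Cyp3a2 varied within every group. It had 402.5, 720.5 and 69.4 CPM in the normal livers, 35.8, 24.3 and 357 CPM in the model livers and 561, 1108 and 193 CPM in the TA livers. Normal rat 3 was far below the other normal rats and above model rats 1 and 2, and all 3 groups overlapped. The ratio of the highest to the lowest liver of Cyp3a2 was 10.4 in the normal and 14.7 in the model group, and the log2 fold change of -1.50 ± 1.12 in Model VS Normal did not pass either rule.

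The Cyp2c genes did not move as 1 group. Of 6 tested in Model VS Normal, 3 had negative and 3 positive values. Cyp2c11, the male-type testosterone hydroxylase, had 1121, 895 and 900.4 CPM in the normal livers, 10.4, 1.69 and 691 CPM in the model livers and 433, 1007 and 787 CPM in the TA livers. Model rats 1 and 2 were far below all other livers, with a difference of 407-fold between model rats 2 and 3, the largest among the 34 members, while model rat 3 was below the normal range and inside the TA range. The log2 fold change of Cyp2c11 was imprecise, at -2.05 ± 1.64 with an adjusted p of 0.434 by edgeR's test, and at -7.30 with an adjusted p of 0.00596 without model rat 3, over a range of 0.00596 to 0.586 under all alternatives.

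Cyp2c12, the steroid sulfate hydroxylase typical of females, went the other way. It had 11.5, 11.8 and 20.4 CPM in normal, 17.6, 51.6 and 23.5 CPM in model and 12.1, 15.1 and 13.1 CPM in TA livers. The model livers were above the TA livers without overlap, and model rat 1 lay inside the normal range. On the log2 scale Cyp2c12 differed by 1.10 ± 0.44 in Model VS Normal, with an unadjusted p of 0.0368 and an adjusted p of 0.145, and -1.21 ± 0.40 in TA VS Model, with an adjusted p of 0.264 by edgeR's test. Without model rat 2 these values were 0.51 and -0.63, past neither rule. The thresholds of the study were also lost without normal rat 1 or 2 in the first comparison and without TA rat 1 or 3 in the second. Per length, Cyp2c11 exceeded Cyp2c12 by 99.2, 76.7 and 44.8 times in the normal livers, by 29.8 times in model rat 3 and by 36.3, 67.6 and 61.1 times in the TA livers, as ratios of FPKM. In model rats 1 and 2 these ratios were 0.598 and 0.0334, so that the female-type mRNA was the higher one in these livers of male rats.

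Cyp2c13, another male-type form, had 1447, 1149 and 985 CPM in normal, 172, 485 and 1479 CPM in model and 1897, 2426 and 1269 CPM in TA livers, with overlap in each comparison. Cyp2c22 had 316, 506 and 309 CPM in normal, 253, 842 and 669.6 CPM in model and 786, 841 and 468 CPM in TA livers. It was 1 of 2 members with at least 10 FPKM in normal liver whose log2 fold change was not negative in Model VS Normal (the other, Cyp4b1, was singled out after its values were seen), though model rat 1 was below the normal range. It had a log2 fold change of 0.66 ± 0.50 there and of 0.86 ± 0.31 in TA VS Normal, where the unadjusted p was 0.0219 and the adjusted p 0.396. Cyp2c23 had log2 fold changes of -0.94 ± 0.72 in Model VS Normal, against 0.76 ± 0.72 in TA VS Model, with overlap in both.

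The promoter windows of Cyp2c11, Cyp2c12 and Cyp2c13, genes of 1 subfamily on rat chromosome 1, are shown because their mRNA differed in direction in model rats 1 and 2. There Cyp2c12 was above its normal mean, though inside the normal range in model rat 1, while Cyp2c11 and Cyp2c13 were below theirs. In model rat 3 both Cyp2c12 and Cyp2c13 were above, by 0.72 and 0.33 on the log2 scale. The windows are RefSeq sequences of the GRCr8 assembly, 250 bases before and 50 after the start of the gene, written 5′ to 3′. Capitals mark AGGTCA or AGTTCA, letters of nuclear receptor sites, and TATAAA, the TATA box, on either strand.
Cyp2c11, chr1:246174966-246175265, plus strand: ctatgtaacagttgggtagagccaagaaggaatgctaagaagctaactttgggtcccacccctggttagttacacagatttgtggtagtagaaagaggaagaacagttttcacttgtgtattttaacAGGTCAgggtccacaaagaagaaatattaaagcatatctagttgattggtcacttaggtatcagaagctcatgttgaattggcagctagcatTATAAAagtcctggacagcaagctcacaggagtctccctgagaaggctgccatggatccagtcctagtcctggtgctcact
Cyp2c12, chr1:248676985-248677284, minus strand: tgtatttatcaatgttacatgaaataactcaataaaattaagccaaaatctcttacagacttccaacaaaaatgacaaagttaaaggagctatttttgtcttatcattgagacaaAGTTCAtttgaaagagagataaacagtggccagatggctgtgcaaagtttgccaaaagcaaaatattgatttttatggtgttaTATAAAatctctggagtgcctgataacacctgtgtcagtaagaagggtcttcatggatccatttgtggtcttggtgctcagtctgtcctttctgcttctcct
Cyp2c13, chr1:248787139-248787438, minus strand: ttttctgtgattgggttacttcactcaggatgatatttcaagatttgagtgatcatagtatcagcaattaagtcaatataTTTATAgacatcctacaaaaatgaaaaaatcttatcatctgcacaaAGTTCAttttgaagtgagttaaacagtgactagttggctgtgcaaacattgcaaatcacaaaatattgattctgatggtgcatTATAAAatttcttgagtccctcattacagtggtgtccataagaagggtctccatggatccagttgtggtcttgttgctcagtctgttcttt
The windows of Cyp2c12 and Cyp2c13 were equal at 187 of 289 bases (64.7%) when shifted by 11 bases without gaps, though the mRNA of one was higher and of the other lower in model rats 1 and 2 than the normal mean. Cyp2c11 shared 35.1% of its bases with Cyp2c12 and 33.3% with Cyp2c13 at the best shift. AGGTCA was found for 12 of the 38 members with a promoter window and in 16.2% of the 33469 promoters given. AGTTCA was found for 9 members and in 14.5%, and TATAAA for 10 and in 14.2%. Members were counted by gene, with a match in any window of the gene, and the background by promoter. Some members had more than 1 window, so these shares are not of like units. Of the other motifs searched on both strands, CAAAGTCCA of the HNF4 type was found for 1 member and in 0.391% of promoters. TTCNNNGAA of the STAT5 type was found for 6 and in 8.87%, and GCGTG, the core letters of Ahr sites, for 11 and in 29.7%. These are matches of letters, not sites.

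**Figure D4:**
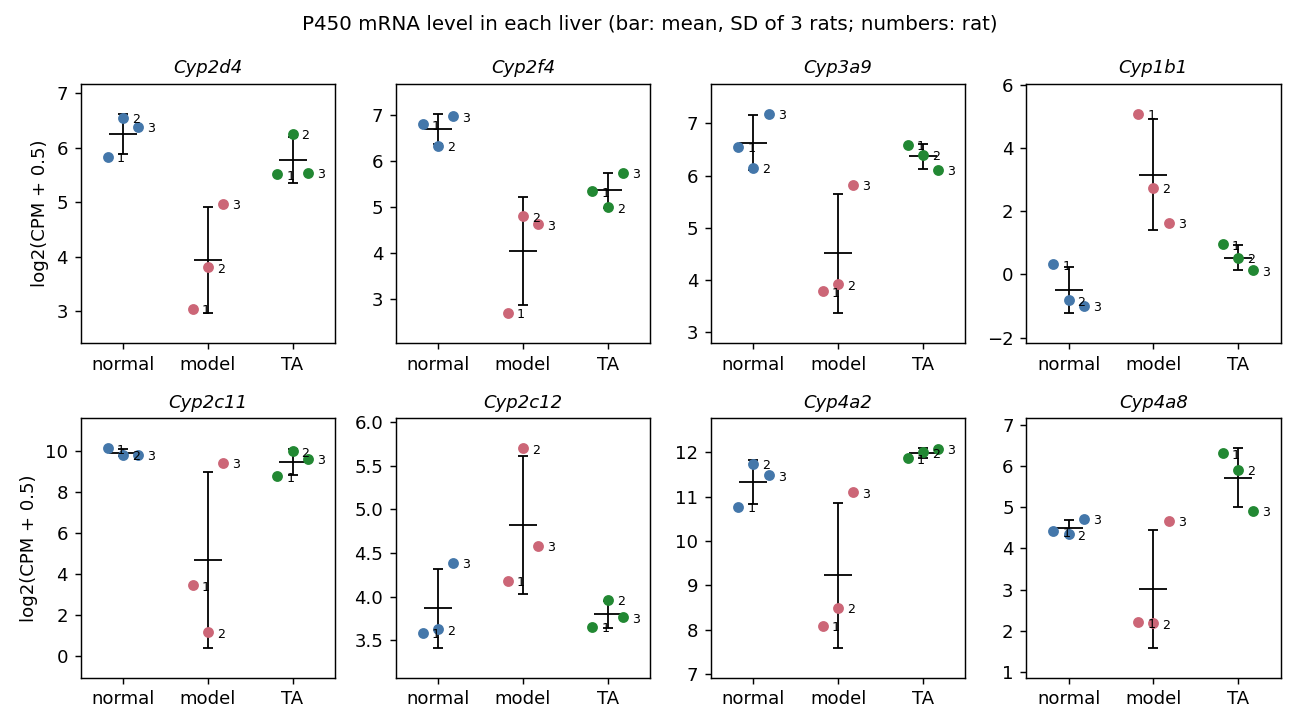
Level of 8 P450 genes in each liver as log2(CPM + 0.5), by group, with the rat number beside each point and a bar for the mean and SD of 3 rats. Model rats 1 and 2 are far below normal for Cyp2c11, Cyp4a2 and Cyp4a8 while model rat 3 is near it. Cyp2d4, Cyp2f4 and Cyp3a9 are below normal in each model rat, and Cyp1b1 is above normal in each.

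Cyp2a1, which hydroxylates testosterone and is higher in females, and Cyp2b2, the phenobarbital-inducible form, were followed as single genes. Cyp2a1 had 1013, 1186 and 1392 CPM in normal, 135, 597 and 956 CPM in model and 1265, 1087 and 1204 CPM in TA livers. Each model liver was below each of the other 6, and the log2 fold change of -1.08 ± 0.66 had an adjusted p of 0.316. Cyp2b2 had 18.7, 19.1 and 40.1 CPM in normal, 2.29, 3.06 and 39.6 CPM in model and 55.0, 56.2 and 11.9 CPM in TA livers. Its groups overlapped throughout, with model rat 3 at the level of the highest normal rat, and without model rat 3 the log2 fold change moved from -0.80 to -3.27, with an adjusted p of 0.00744 by edgeR's test.

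The Cyp4a genes encode omega hydroxylases of fatty acids and are classical targets of Ppara. The 3 tested genes had positive values in TA VS Model and in TA VS Normal under all 5 scalings. Cyp4a2 had 1740, 3421 and 2859 CPM in normal, 273, 359 and 2189 CPM in model and 3732, 4100 and 4320 CPM in TA livers. The TA livers were above all 6 others, and model rat 3 was inside the normal range. Cyp4a2 had a log2 fold change of 2.10 ± 0.87 in TA VS Model and of 0.57 ± 0.28 in TA VS Normal, with adjusted p-values of 0.308 and 0.608 by edgeR's test. Cyp4a2 passed the thresholds of the study in TA VS Model in 2 of 6 fits without 1 library, not without model rat 2 or any 1 of the TA rats, and the value was 3.67 without model rat 3. Cyp4a8 had 20.9, 19.8 and 25.7 CPM in normal, 4.10, 4.04 and 24.9 CPM in model and 78.5, 59.4 and 29.6 CPM in TA livers. Again the TA livers were above all 6 others. The log2 fold change of Cyp4a8 was 2.34 ± 0.75 in TA VS Model and 1.31 ± 0.34 in TA VS Normal, with adjusted p-values of 0.264 and 0.195, and both passed the thresholds of the study. Without TA rat 1 the latter value was 0.98, below them, and without model rat 3 the former was 3.77. Cyp4a1 ranged from 35.6 to 844 CPM in the model livers, across the normal range of 433 to 590 CPM. Its log2 fold change in Model VS Normal was -0.40 ± 0.88. The value was 0.16 with the hepatocyte markers as the scale and 0.11 without model rat 1. In the TA livers Cyp4a1 had 1093, 426 and 796 CPM, with TA rat 2 below each normal rat. The TA group overlapped both other groups.

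The Cyp4f genes oxidise leukotrienes and long fatty acids. Of 6 tested in Model VS Normal, 4 had negative values (3 with the hepatocyte markers as the scale). By the thresholds of the study 2 of these were lower, as 5.55% of all genes were. Cyp4f1 was steady in the normal livers at 980.2, 981 and 1026 CPM, against 135, 251 and 629 CPM in the model livers and 401, 860 and 748 CPM in the TA livers. It was below normal in all 6 treated rats. The log2 fold change of Cyp4f1 was -1.54 ± 0.58 in Model VS Normal, against -0.60 ± 0.29 in TA VS Normal, with adjusted p-values of 0.128 and 0.589 by edgeR's test. In Model VS Normal Cyp4f1 lost the thresholds of the study without model rat 2 or any 1 normal rat, and was at -2.36 without model rat 3. Cyp4f6 had 119, 103 and 148 CPM in normal, 42.5, 69.1 and 86.9 CPM in model and 104, 142 and 173 CPM in TA livers, so that the model livers were below both other groups. The value of Cyp4f6 on the log2 scale was -0.89 ± 0.32 in Model VS Normal, 0.08 with the hepatocyte markers as the scale, and 1.07 ± 0.35 in TA VS Model, with an adjusted p of 0.264. The latter fell short of the thresholds of the study without model rat 1 or TA rat 3.

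Cyp2f4 and Cyp1b1 are best known outside hepatocytes. Cyp2f4, which activates naphthalene in the lung, had 111, 79.9 and 124 CPM in normal, 6.00, 27.4 and 24.2 CPM in model and 40.1, 31.4 and 53.1 CPM in TA livers. The groups did not overlap in any of the 3 comparisons, with the TA livers between the others. Cyp2f4 fell by 2.44 ± 0.53 on the log2 scale in Model VS Normal, with an adjusted p of 0.0364 by edgeR's test. Over all alternatives the adjusted p ran from 0.000157, by DESeq2, to 0.135. The log2 fold change in TA VS Model was 1.11 ± 0.51, higher in the TA rats, with an adjusted p of 0.337. In TA VS Normal it was -1.37 ± 0.26, with an adjusted p of 0.0946 by edgeR's test. With the replicate number as a block it was -1.38 with an adjusted p of 0.00656, the 1 member called there. Over all alternatives the adjusted p ran from 0.000357, by DESeq2, to 0.479.

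Cyp1b1, which hydroxylates oestradiol and is found in mesenchymal cells, had 9, 1 and 0 reads in the normal livers, 761, 95 and 37 reads in the model livers and 20, 11 and 8 reads in the TA livers. In CPM these were 0.754, 0.0647 and 0 in normal, 33.6, 6.19 and 2.62 in model and 1.43, 0.934 and 0.597 in TA livers. Each model liver was above each of the other 6, and model rat 1 was the highest, as it was for the stellate cell and cholangiocyte genes. The log2 fold change of Cyp1b1 was 5.76 ± 1.33 in Model VS Normal, with an adjusted p of 0.0418 by edgeR's test. Over all alternatives, other tests among them, the adjusted p ran from 0.000809 to 0.174. In TA VS Model the log2 fold change was -3.86 ± 0.97, with an adjusted p of 0.246 by edgeR's test. At these few normal reads the size of the rise is imprecise, and without model rat 1 the 2 values were 4.03 and -2.15. Against normal, the TA value was 1.84 ± 1.03 without the filter on low counts, with an unadjusted p of 0.104. Cyp1a1, the other member of the Cyp1 family, which oxidises aromatic hydrocarbons, had 10, 13 and 1 reads in normal, 58, 39 and 7 in model and 21, 51 and 30 in TA livers. Its log2 fold change of 2.12 ± 0.72 in TA VS Normal, without overlap, had an unadjusted p of 0.0177 and an adjusted p of 0.363, and fell short of an unadjusted p under 0.05 without TA rat 2, at 1.60. The filter on low counts removed Cyp1a1 from Model VS Normal. Without that filter its value there was 1.65 ± 0.87, with an unadjusted p of 0.0866 by edgeR's test. Model rats 1 and 2, at 2.56 and 2.54 CPM, were also above the normal range of 0.0836 to 0.841 CPM. Model rat 3 was inside it, at 0.495 CPM. In TA VS Model the value was 0.49 ± 0.69, with overlap.

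The promoter window of Cyp1b1 is shown because it was the 1 member that rose at an adjusted p under 0.05. It is from the same RefSeq table, and capitals mark GCGTG or its reverse complement, which begins 81 and 20 bases before the start.
Cyp1b1, chr6:21094315-21094614, plus strand: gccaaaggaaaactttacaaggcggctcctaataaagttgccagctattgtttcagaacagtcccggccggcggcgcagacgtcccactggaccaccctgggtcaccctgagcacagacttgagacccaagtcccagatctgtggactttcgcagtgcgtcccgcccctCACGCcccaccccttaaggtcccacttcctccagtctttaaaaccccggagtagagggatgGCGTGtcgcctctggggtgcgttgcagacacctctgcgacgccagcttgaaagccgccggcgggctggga
The letters GCGTG occur in 29.7% of all promoters of this table. Ahr itself had 112, 104 and 112 CPM in normal, 34.9, 55.0 and 81.5 CPM in model and 80.1, 52.3 and 56.8 CPM in TA livers, below normal in all 6 treated rats. Ahr had a value of -0.92 ± 0.33 on the log2 scale in Model VS Normal, against -0.82 ± 0.21 in TA VS Normal, with unadjusted p-values of 0.0224 and 0.00454 and adjusted p-values of 0.114 and 0.196 by edgeR's test, and the first was 0.04 with the hepatocyte markers as the scale.

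Too few reads for a test in any comparison were found for Cyp2b12, Cyp2b21, Cyp2c7, Cyp2j16, Cyp4f40, Cyp4f5 and Cyp4x1, with at most 5 reads in a liver. The single members that stand apart from these subfamilies, 4 of 5 of them tested, had a median log2 fold change of -0.71 in Model VS Normal and of 0.42 in TA VS Model, with none called, and the latter was -0.44 with the hepatocyte markers as the scale.

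The genes that serve the P450 system were read from lists of electron donors, receptors and haem enzymes. The reductase Por had 161, 282 and 149.6 CPM in normal, 136, 233 and 169 CPM in model and 558, 279 and 222 CPM in TA livers, with overlap in each comparison and a log2 fold change of -0.12 ± 0.37 in Model VS Normal. Of the 6 electron donors, 1 passed the thresholds of the study in Model VS Normal, where it was lower, and 0 in the other comparisons. The receptor Nr1i3 had 194, 208 and 186 CPM in normal, 17.3, 23.1 and 142 CPM in model and 178, 160.3 and 241 CPM in TA livers, and Nr1i2 had 330.4, 359.7 and 428 CPM in normal, 30.6, 219 and 212 CPM in model and 252, 249 and 445 CPM in TA livers. Both were lower in each model rat than in every other rat. Their log2 fold changes in Model VS Normal were -1.68 ± 0.74 and -1.26 ± 0.65, with adjusted p-values of 0.18 and 0.235 by edgeR's test. Ppara had log2 fold changes of -1.21 ± 0.72 in Model VS Normal and of -1.15 ± 0.42 in TA VS Normal, the latter without overlap, with an unadjusted p of 0.0245 and an adjusted p of 0.418. Of the 11 receptors and partners tested, 1 passed the thresholds of the study in each comparison. The share of all genes past them was 22.1% in Model VS Normal (5.55% lower), 12.3% in TA VS Model and 5.25% in TA VS Normal.

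Alas1, the rate-limiting enzyme of haem synthesis, had 189, 298 and 218 CPM in normal, 43.3, 51.5 and 84.0 CPM in model and 380.4, 105 and 100.4 CPM in TA livers. The model livers were below all 6 others. Alas1 fell by 1.96 ± 0.36 on the log2 scale in Model VS Normal, with an adjusted p of 0.0234 by edgeR's test, and the value was -0.94 with an adjusted p of 0.204 with the hepatocyte markers as the scale. In TA VS Model it was 1.70 ± 0.58 with an adjusted p of 0.267. Hmox1, which breaks haem down, had 45.4, 29.9 and 24.2 CPM in normal, 1071, 86.8 and 25.1 CPM in model and 36.4, 26.9 and 16.8 CPM in TA livers, so that its log2 fold change of 3.61 ± 1.24 in Model VS Normal rested on model rats 1 and 2, with model rat 3 inside the normal range. Of 12 haem genes, 1 was higher and 2 were lower by the thresholds of the study in Model VS Normal, and 1 each in TA VS Model. Among 8 hepatocyte transcription factors, 3 were lower in Model VS Normal and 3 higher in TA VS Model by these thresholds, and Cebpb fell by 1.60 on the log2 scale with an adjusted p of 0.0398. With the hepatocyte markers as the scale its value was -0.43. Of 8 genes of growth hormone signalling, which sets the sex-typical forms, 2 were lower in Model VS Normal. In TA VS Model 2 of them were higher and 1 was lower. None of these 8 passed an adjusted p under 0.05, and in TA VS Normal 2 were higher and 1 was lower by the thresholds of the study. Over all genes these thresholds called 16.6% higher and 5.55% lower in Model VS Normal. They called 2.11% higher and 10.2% lower in TA VS Model, and 4.24% and 1.02% in TA VS Normal.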

How the data were processed

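The series holds 9 liver libraries, 3 per group. Per the study's methods, reads were trimmed, then aligned by STAR, and HTSeq-count gave the reads per gene. The methods name a human genome and the labels a mouse build, while the symbols are those of the rat. The read counts the authors deposited were used as they are, without normalization. The FPKM values deposited by the authors were used for levels per length. The authors' DESeq2-normalized values, log2 fold changes and p-values were in the files and were not used. The model counts were equal in the 2 tables for all 16730 shared genes.

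Counts were compared with edgeR 4.0.16 in R 4.3.3 by the quasi-likelihood test (default form, TMM, filterByExpr), with the 2 groups compared in each fit and TA VS Normal over the genes in both tables. Adjustment followed Benjamini and Hochberg over all tested genes. The exact permutation test of 3 rats against 3 cannot go below a two-sided p of 0.1. Each standard error was obtained from the F statistic, as the fold change on the log2 scale over its square root. The script was tested on simulated data. DESeq2 1.42.0, limma 3.58.1, other scalings and filters, a replicate block and leaving out each library were alternatives. The libraries held 13156735 to 18090405 counted reads.

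The members are all the genes that fit the symbol rule, without Cyp2e1 and Cyp1a2. That rule and the gene lists were set with earlier results of these data known, so shares of members beside all genes are descriptions. Genes were named by a rule: the 10 with the highest mean FPKM over all livers, in each comparison those with an adjusted p under 0.05 (at most 10) and up to 5 each way with the largest changes at an unadjusted p under 0.05 without overlap, and fixed genes of known regulation. For TA VS Normal, deviations of same-numbered rats correlated at 0.258, 0.426 and 0.501. Neither the labels nor the study's methods pair the rats by number, and the study drew its groups at random. The block therefore assumes a pairing read from these same data, and it was kept as an alternative to the main fit. In the other comparisons the same-numbered rats did not all deviate together. All 43 members matched a RefSeq symbol, and promoters were given for 38. No per-sample column of another series was found, and proteins were not analysed here.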

Additional observations from a re-analysis of the deposited data

How the results depend on the processing

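In Model VS Normal, the count of members with an adjusted p under 0.05 moved from 3 to 5 with the hepatocyte markers as the scale, 11 with DESeq2 and 20 with limma voom, which also raised the count past the thresholds of the study from 11 to 20. Over all genes, those 3 settings called 22.5%, 20.8% and 27.0% at an adjusted p under 0.05, against 7.87%. By the thresholds of the study limma voom called 23.1% of all genes, against 22.1%. Leaving out 1 library gave 0 to 16 and 5 to 25, and a median between -1.69 and -0.49. The median moved to -0.39 with the library totals and -0.17 with the hepatocyte markers. In TA VS Model, the first count moved from 0 to 1 with the hepatocyte markers and to 3 with DESeq2 and with limma voom, and was 0 whichever library was left out. The same settings called 6.17%, 4.23% and 1.32% of all genes. The second moved from 7 to 15 with DESeq2, 18 with limma voom, 13 with all 9 libraries in 1 fit and 13 with the replicate block. Over all genes these settings called 14.6%, 13.4%, 13.8% and 13.4%, against 12.3%. The second count ran from 4 to 22 over the libraries left out. The median moved to 0.25 with the hepatocyte markers and ran from 0.59 to 1.55. In TA VS Normal, the first count moved from 0 to 2 with DESeq2, 2 with limma voom and 1 with the replicate block. Over all genes these settings called 2.96%, 1.03% and 1.67%, against 0.263%. The first count ran from 0 to 1 over the libraries left out. The second moved from 3 to 5 with limma voom, which called 6.61% of all genes against 5.25%, and ran from 2 to 5. The median of -0.10 moved to -0.038 with upper quartile scaling, 0.094 with library totals, 0.19 with the hepatocyte markers, 0.025 without the filter, 0.017 with limma voom and 0.021 with all 9 libraries, and ran from -0.13 to 0.13. The causes were not tested, except that leaving out a library leaves fewer samples.

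Same-numbered rats did not all deviate together in Model VS Normal (correlations of 0.21, -0.06 and -0.05) or in TA VS Model (0.22, -0.04 and 0.01). With the replicate block in Model VS Normal, 4 members had an adjusted p under 0.05 and 15 passed the thresholds of the study. The block called 9.55% and 23.0% of all genes there by these rules. In TA VS Normal the block changed no member's call at an adjusted p under 0.05 other than that of Cyp2f4.

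Some values of single genes changed sign. In Model VS Normal, Cyp4a1 was 0.16 and Cyp4f6 0.083 with the hepatocyte markers, and Cyp4a1 ran from -1.68 to 0.11 over the libraries left out. In TA VS Model, Cyp1a1 was -0.093 with the library totals and -0.84 with the hepatocyte markers and ran from -0.010 to 0.81, and Cyp2c22 was -0.12 and -0.51 with the same scalings and -0.11 without model rat 1. In TA VS Normal, Cyp2a1 was 0.012 with upper quartile scaling, 0.15 with library totals, 0.26 with the hepatocyte markers and 0.063 with limma voom, and ran from -0.16 to 0.075. Cyp2c12 was 0.040, 0.12 and 0.048 with library totals, hepatocyte markers and limma voom, and ran from -0.30 to 0.17. Cyp2c23 was 0.10 with the hepatocyte markers and ran from -0.50 to 0.030, Cyp3a2 ran from -0.13 to 1.37 and Cyp4f6 from -0.035 to 0.32. Of the 1096 values of named genes under the alternatives, 962 kept their direction and their side of the thresholds. As a share of summed FPKM, the members took 0.282% to 1.14% in the model livers, against 0.897% to 1.27% in normal and 1.06% to 1.57% in TA livers. The few reads of Cyp1a1, Cyp1b1 and the untested members limit what can be read from them.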
